A study of Drosophila melanogaster with 18 samples.

Results

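Whole first-instar larvae of Drosophila melanogaster that carried mutations in HP1a and Pof were compared with larvae mutant for Setdb1, gene by gene. The comparison used 6 of the 18 arrays of the series: the 3 labelled HP1a Pof double mutant and the 3 labelled Setdb1 mutant, each labelled A to C, chosen by the genotype in the sample titles. The larvae labelled double mutant carried HP1a04 over HP1a05, with the allele PofD119 on each chromosome copy. The Setdb1 larvae were homozygous for Setdb110.1. No allele is named for both groups, and none of the labels says whether a protein is absent. In every difference below, the named alleles and other genetic background of the 2 groups cannot be told apart. For reference, levels are also given for HP1a04/HP1a05 larvae without a Pof allele (3 arrays) and for wildtype larvae (6 arrays). The fit also holds 3 arrays of larvae with Su(var)3-9evo over Su(var)3-906, whose means are given for some genes. Flies were raised at 25 °C, larvae were taken at about 48 hours of age counted from egg laying, and each array measured RNA from a pool of 200 larvae described as a biological replicate. Values are log2 signals of one-colour Affymetrix arrays, and a difference is always the arrays labelled double mutant minus the Setdb1 mutants, with its standard error (SE). A p-value here measures the spread between pools of larvae, and 3 arrays in each mutant group limit its precision.

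HP1a binds methylated histone H3 and is a main structural protein of heterochromatin, the compacted part of the genome around centromeres. Setdb1 is a histone H3 methyltransferase known in Drosophila for its activity on the small, largely heterochromatic chromosome 4. POF, named for painting chromosome 4, binds active genes of chromosome 4 and is known to raise their output, and its binding there depends on HP1a and Setdb1. Position and length of the affected genes are 2 of the properties that the title of the series names.

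The arrays were checked against their labels before the groups were compared. The HP1a gene read 9.61, 9.45 and 9.52 on arrays A, B and C labelled double mutant and 9.95, 10.23 and 10.22 on the Setdb1 arrays, with means of 9.48 in HP1a mutants and 10.20 in wildtype. All 3 arrays with the HP1a alleles lay below all 3 Setdb1 arrays, and the gene was lower by 0.61 on the log2 scale (difference -0.61 ± 0.08, limma adjusted p = 5.83e-05). Pof, on chromosome arm 2R, had its highest group mean on the arrays labelled double mutant. It read 8.28, 8.05 and 8.62 on the arrays labelled double mutant, against 6.91, 6.98 and 7.08 in Setdb1 mutants, 7.05 ± 0.05 (SD, n = 3) for the HP1a mutant arrays and 7.49 ± 0.09 (n = 6) for wildtype. Su(var)3-9 mutants read 7.07, 8.31 and 7.45, and their array B lay within the range of the arrays labelled double mutant. Against Setdb1 mutants, Pof was therefore higher in all 3 arrays that should carry the mutant Pof allele (difference 1.33 ± 0.21, limma adjusted p = 0.000358). The probe set can match several transcripts, and no source used here places it inside or outside the stretch that the allele lacks, so this signal checks nothing about the label. The group is called "the arrays labelled double mutant" throughout, and every direction drawn from it carries that limit. The Setdb1 gene itself was not analysed here.

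Across the 8195 genes bright enough to test, arrays of the same mutant group resembled each other more than arrays of the other group did. Correlations ran from 0.969 to 0.992 among the arrays labelled double mutant, from 0.972 to 0.981 among Setdb1 arrays and from 0.939 to 0.960 between the groups. The median level of the tested genes lay between 8.17 and 8.21 on the arrays labelled double mutant and between 8.15 and 8.17 in Setdb1 mutants. The signal of 3' minus 5' probe sets for control transcripts, a sign of RNA integrity or labelling, was 1.54, 1.43 and 1.54 on the arrays labelled double mutant and 1.16, 1.33 and 1.27 in Setdb1 mutants. The groups do not overlap in that measure, and its part in the results below was not tested.

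In the genome-wide comparison, genes of detoxification and digestion were among those that differed most between the larvae. At an adjusted p under 0.05 (limma with Benjamini-Hochberg adjustment over all tested genes), 1095 genes were higher on the arrays labelled double mutant (13.4% of the genes tested) and 1118 were lower (13.6%). Together 27.0% of genes were called. A difference of at least 2-fold was met by 86 genes higher (1.05%) and 181 lower (2.21%), together 3.26%. The median difference over all genes was 0.02. Most differences were therefore under 2-fold, and 42.5% of genes had 3 arrays on one side of the other 3. The number called higher rested on single arrays: it was 588 without Setdb1 array B, 631 without array A labelled double mutant and 632 without array B labelled double mutant. The number at least 2-fold higher was 148 without Setdb1 array A.

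Among the 12 largest rises were genes of very different kinds. CG9259 read 10.36, 10.42 and 10.24 on the arrays labelled double mutant and 4.89, 4.99 and 5.36 in Setdb1 mutants (difference 5.26 ± 0.17, adjusted p = 3.18e-12). Its mean was 10.75 in HP1a mutants and 4.65 in wildtype, while Su(var)3-9 mutants averaged 10.16. The cuticle protein gene Cpr49Ad showed a like order, with 9.84, 9.48 and 9.33 against 4.82, 4.81 and 5.39 and means of 10.50 for HP1a mutants, 10.58 for Su(var)3-9 mutants and 5.15 for wildtype (difference 4.54 ± 0.18). The gene cn, for the kynurenine 3-monooxygenase of the brown eye pigment pathway, read 7.11, 6.59 and 7.33 against 3.87, 4.35 and 4.21 (difference 2.87 ± 0.15), with wildtype at 3.67. Levels below about 6 lie near the bottom of the usable range, so the differences of such genes may be understated.

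Several other large rises came from genes that read low in Setdb1 mutants and high in wildtype. Prx6c, a peroxiredoxin, read 10.04, 9.84 and 9.99 on the arrays labelled double mutant, 6.20, 5.36 and 6.19 in Setdb1 mutants and 11.66 on average in wildtype (difference 4.04 ± 0.23). CG8160 read 12.18, 11.94 and 11.66 against 8.10, 6.88 and 6.32, with wildtype at 12.21 (difference 4.83 ± 0.33). The C-type lectin gene lectin-24A (difference 3.37 ± 0.15) and CG13658 (3.10 ± 0.16) followed the same order, with wildtype means of 9.51 and 9.72 above both mutant groups. Naglu, an alpha-N-acetylglucosaminidase, read 9.56, 9.47 and 9.43 against 5.69, 5.67 and 5.04, with wildtype between the groups at 7.28 (difference 4.02 ± 0.17). Against wildtype, Naglu differed by 2.20 on the arrays labelled double mutant (limma adjusted p = 4.43e-09) and by -1.82 in Setdb1 mutants (limma adjusted p = 8.93e-08). Comparisons with wildtype called 60.8% of all genes for the former group and 52.5% for the latter. The cytochrome P450 genes Cyp28a5 (3.12 ± 0.18) and Cyp28d2 (2.33 ± 0.24) and the antifungal peptide gene Drs (2.53 ± 0.41) completed the 12 with Zip102B, described below with chromosome 4. Wildtype was not high for Cyp28a5 (5.99) or Drs (5.73).

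The 12 largest falls included 4 genes of detoxification. GstE5, a glutathione S-transferase, read 6.81, 6.22 and 6.31 on the arrays labelled double mutant and 10.79, 10.46 and 10.42 in Setdb1 mutants (difference -4.11 ± 0.15, limma adjusted p = 9.17e-12). GstE1, its paralogue on the same arm, read 7.78, 7.45 and 8.01 against 10.88, 10.93 and 11.02 (difference -3.20 ± 0.11). The cytochrome P450 gene Cyp9c1 read 6.10, 6.04 and 5.96 against 8.97, 9.36 and 9.08 (difference -3.11 ± 0.09). These 3 genes read nearer to wildtype in Setdb1 mutants, and their wildtype means were 10.82, 11.00 and 9.65. They were also lower on the arrays labelled double mutant than in HP1a mutants, by -2.46 for GstE5, -2.43 for GstE1 and -3.37 for Cyp9c1 (limma adjusted p = 3.83e-08, 1.63e-09 and 7.26e-13). Cyp4p1 differed in that respect: it read 6.81, 6.60 and 7.20 against 10.81, 10.30 and 10.43, and its HP1a mutant mean of 6.51 lay with the arrays labelled double mutant (difference -3.65 ± 0.14).

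The remaining large falls also divided by which group stood away from wildtype. CG1304 read 4.94, 5.77 and 5.78 on the arrays labelled double mutant and 9.82, 9.94 and 9.38 in Setdb1 mutants, with HP1a mutants at 4.29, Su(var)3-9 mutants at 9.32 and wildtype at 4.37 (difference -4.22 ± 0.22). Jig also stood above wildtype in Setdb1 mutants, at 7.55, 8.51 and 9.80 against 5.28, and its arrays labelled double mutant read 5.01, 6.09 and 6.88 (difference -2.62 ± 0.44). CG30458 read 6.89, 7.12 and 7.19 against 10.76, 9.93 and 11.86, with HP1a mutants at 11.30 and wildtype at 8.57 (difference -3.78 ± 0.44). It was lower by -4.23 than in HP1a mutants (limma adjusted p = 4.58e-05). The serine protease gene Ser6 (-2.80 ± 0.13), CG11893 (-2.90 ± 0.18), CG7631 (-2.68 ± 0.29), CG5892 (-2.67 ± 0.28) and CG14120 (-2.57 ± 0.21) made up the rest.

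**Figure D1:**
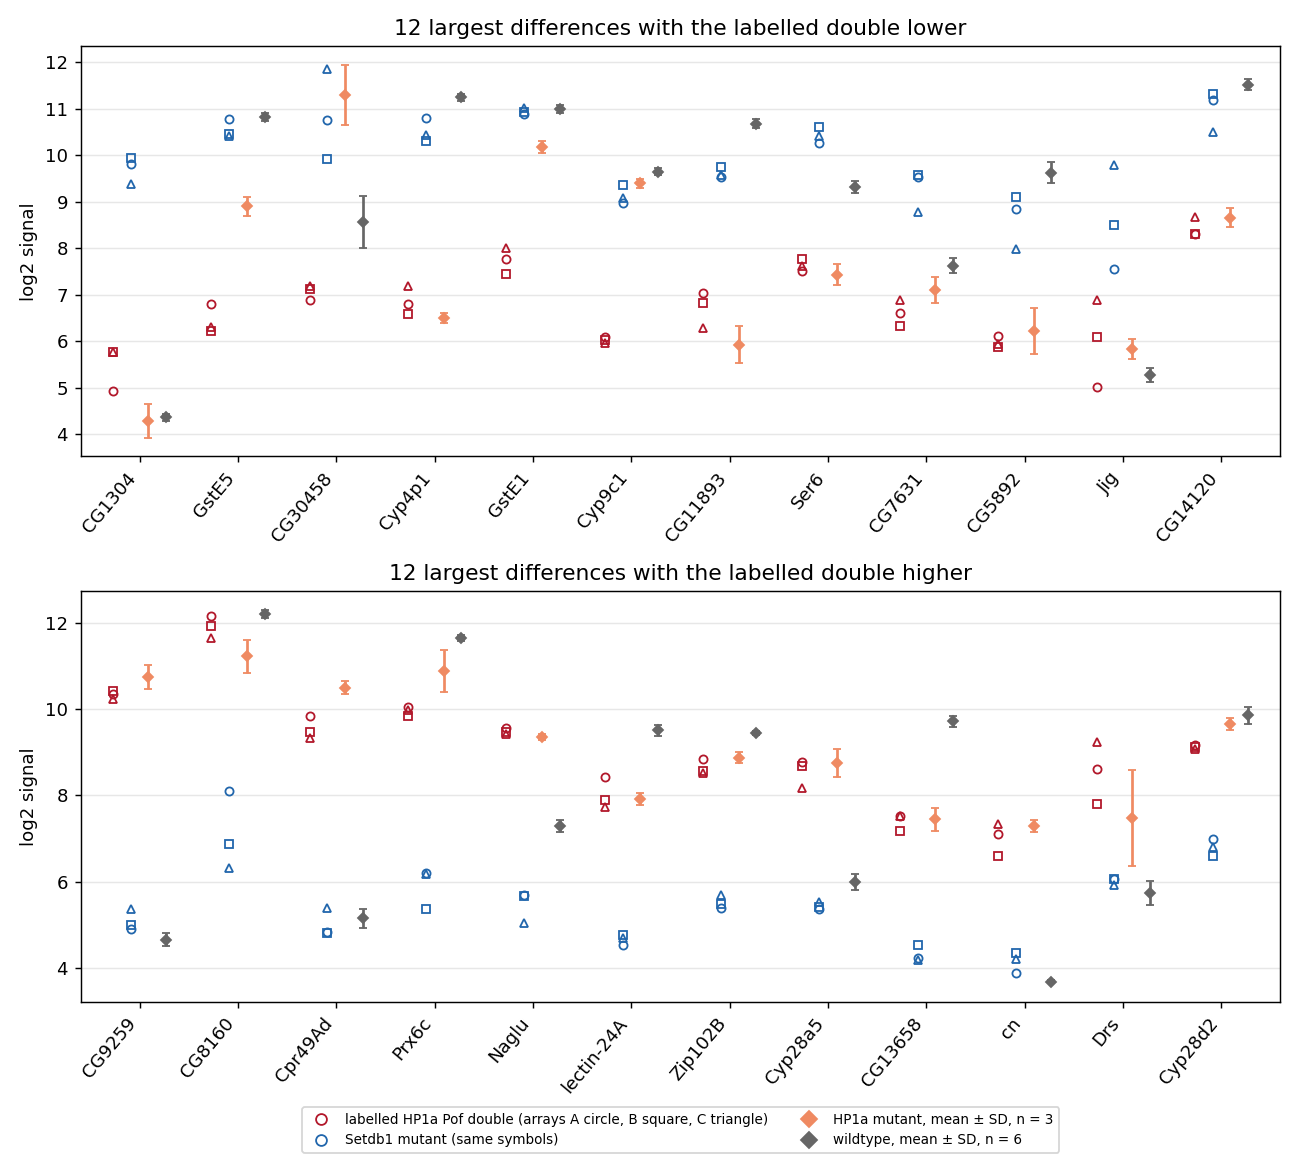
Log2 signal of the 24 genes with the largest differences, lower genes above and higher genes below; open symbols are single arrays labelled double mutant (red) and Setdb1 mutant (blue), and filled diamonds are mean ± SD of HP1a mutants (n = 3) and wildtype (n = 6). GstE5, GstE1, Cyp9c1 and CG30458 are the genes at which the red symbols lie far below the HP1a mutant mean as well.

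The comparison with HP1a mutants gives the context for the Pof allele, since those groups differ in label by PofD119 alone. It called 60 genes (0.732% of those tested), 20 higher and 40 lower on the arrays labelled double mutant. HP1a mutants against the same Setdb1 arrays gave 693 genes higher and 823 lower (18.5% called). These comparisons share arrays with the main one, so their values stand side by side and no agreement between them is read as a result. Pof lies at chr2R:24669397-24671577, and GstE5, GstE1, CG30458 and Cyp9c1 lie on the same arm, Cyp9c1 at chr2R:24631063-24632923. Whether the groups also differ in sequence linked to the Pof allele, or in other genetic background, was not tested.

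On chromosome 4, where POF and Setdb1 act, the 2 mutant groups differed at 13 genes, led by Zip102B, mav and CG31999, and the share of genes called was not above that of the genome. The array names 65 chromosome 4 genes, of which 55 were bright enough to test and 10 were not. Of the 55, 4 were higher and 9 lower, a share called of 23.6% against 27.0% of all genes. The median difference was -0.05 and the mean 0.00, against a median of 0.02 over all genes, and without the single outlying gene Zip102B the mean was -0.06. The 3 and 3 arrays did not overlap at 10 genes higher and 11 lower, or 38.2% of the chromosome's genes against 42.5% of all genes. The mean level of chromosome 4 genes minus that of all other genes was 0.39, 0.38 and 0.27 on the arrays labelled double mutant and 0.43, 0.33 and 0.29 in Setdb1 mutants. These ranges overlap. Both lie above the 0.12 to 0.26 of the wildtype arrays, and HP1a mutants read 0.61, 0.43 and 0.43.

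Chromosome 4 genes are long, with a median of 10484 bp against 2721 bp over all genes, and long genes were on the whole higher on the arrays labelled double mutant, as described below. Set against genes of the same length group, the median chromosome 4 difference was -0.14. In the longest of 5 equal length groups, chromosome 4 had 34 tested genes with a median of 0.04, while the 1605 genes of that group on other chromosomes had a median of 0.19. Of those 34 genes 3 were higher and 5 lower, against 356 and 86 of the 1605.

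Zip102B, a zinc transporter gene of the ZIP family at chr4:310930-314087 (Release 6 coordinates), differed most. It read 8.85, 8.57 and 8.52 on the arrays labelled double mutant and 5.39, 5.47 and 5.68 in Setdb1 mutants, with means of 8.87 for HP1a mutants, 8.82 for Su(var)3-9 mutants and 9.46 for wildtype. The Setdb1 arrays alone were low, and the groups were far from overlapping (difference 3.13 ± 0.09, limma adjusted p = 1.59e-12). Set against wildtype, Zip102B differed by -0.81 on the arrays labelled double mutant (limma adjusted p = 4.33e-07) and by -3.95 in Setdb1 mutants (limma adjusted p = 4.23e-15). Its tested neighbours were not called: Rad23, a DNA repair gene 1 place before it, differed by -0.04 ± 0.09, and Rnf11, 1 place after it, by 0.54 ± 0.31.

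The largest fall was in mav, which encodes Maverick, a ligand of the TGF-beta family, at chr4:623219-626031. It read 7.07, 6.90 and 7.02 on the arrays labelled double mutant and 8.47, 7.98 and 8.42 in Setdb1 mutants, with 8.24 for HP1a mutants, 8.84 for Su(var)3-9 mutants and 8.45 for wildtype (difference -1.29 ± 0.14, limma adjusted p = 6.93e-06). Here the arrays labelled double mutant alone were low. CG31999, at chr4:215009-227748, was also lowest on these arrays, with 8.05, 7.76 and 7.70 against 8.98, 8.78 and 9.01, and 9.02 in HP1a mutants and 9.49 in wildtype (difference -1.09 ± 0.13, limma adjusted p = 2.81e-05). Unlike mav, it was also called below wildtype in Setdb1 mutants (-0.57) and HP1a mutants (-0.47, limma adjusted p = 0.000639 and 0.00219). Of the 55 tested chromosome 4 genes, 2 were called against HP1a mutants, beside 0.732% of all genes. They were mav at -1.24 and CG31999 at -1.18 (limma adjusted p = 6.97e-05 for each). Neither was called between HP1a and Setdb1 mutants, where mav differed by -0.05 and CG31999 by 0.10. That comparison called 3 of the 55 chromosome 4 genes higher and 1 lower in HP1a mutants, beside 18.5% of all genes called.

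A further 7 chromosome 4 genes were lower on the arrays labelled double mutant. Pur-alpha, a nucleic acid binding protein, read 8.17, 8.15 and 7.99 against 8.79, 8.80 and 9.06 (difference -0.78 ± 0.12), and both groups stood above the wildtype mean of 7.43. CG1674 read 9.55, 9.49 and 9.68 against 10.04, 10.16 and 10.28 (difference -0.59 ± 0.14), with the arrays labelled double mutant close to the wildtype mean of 9.42. The transcription factor gene of Hedgehog signalling, ci, at chr4:47710-57041, read 8.20, 8.06 and 8.12 against 8.65, 8.77 and 8.61 (difference -0.56 ± 0.11), with 8.52 in wildtype. The 3 arrays of each group were on opposite sides for all 3 of these genes. CG33521 differed by -0.70 ± 0.21, the cell-surface immunoglobulin gene dpr7 by -0.35 ± 0.12, CG31997 by -0.34 ± 0.12 and the calcium pump gene PMCA by -0.30 ± 0.10, with limma adjusted p between 0.0209 and 0.0473. The arrays of the 2 groups overlapped for CG31997, and PMCA was not called with the mean of its probe sets.

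Of the chromosome 4 genes that were higher, gw, which encodes the GW182 protein of microRNA silencing, read 10.56, 10.71 and 10.41 against 10.03, 9.81 and 9.62 (difference 0.74 ± 0.12, limma adjusted p = 0.000301). Against the wildtype mean of 10.18 gw differed by 0.38 on the arrays labelled double mutant (limma adjusted p = 0.00391) and by -0.36 in Setdb1 mutants (limma adjusted p = 0.00677). The Pax6 gene toy read 8.01, 8.30 and 7.95 against 7.81, 7.20 and 6.83 (difference 0.81 ± 0.25), and both groups lay above the wildtype mean of 6.20. Gyf, a translational repressor gene, read 10.46, 10.36 and 10.46 against 9.99, 9.83 and 10.01 (difference 0.48 ± 0.14). Of the 13 called genes, 7 were called in every alternative (Zip102B, mav, CG31999, Pur-alpha, gw, CG1674 and ci). The other 6 (CG31997, CG33521, Gyf, PMCA, dpr7 and toy) were lost in at least 1, each of them without at least 1 of the 6 arrays. Over all alternatives their highest limma adjusted p was 0.562, for PMCA. Without array A labelled double mutant or without Setdb1 array B the count was 2 higher and 6 lower, and without array B labelled double mutant it was 3 and 5.

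When the replicate letter entered as a block, 7 chromosome 4 genes were higher and 10 lower, and all 13 genes above kept their calls. The genes added were the muscle gene bt (0.38), the homeobox genes onecut (0.48) and zfh2 (0.39), and, on the lower side, CG1909 (-0.40). Outside the calls, some chromosome 4 genes were far from wildtype in both mutant groups without a called difference between them. Rnf11, a RING finger gene, read 9.54 ± 0.25 (SD, n = 3) and 9.00 ± 0.28 (n = 3) against 6.18 ± 0.38 (n = 6) in wildtype. Ephrin, the ligand of the Eph receptor, read 7.69 and 7.83 against 6.22, and NfI, a transcription factor gene, 5.93 and 6.15 against 4.80. HP1a mutants were above wildtype as well, at 9.12 for Rnf11, 7.74 for Ephrin and 6.09 for NfI. The wildtype level of NfI lay below the filter at log2 6. The last 3 genes were chosen after their values were seen.

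**Figure D2:**
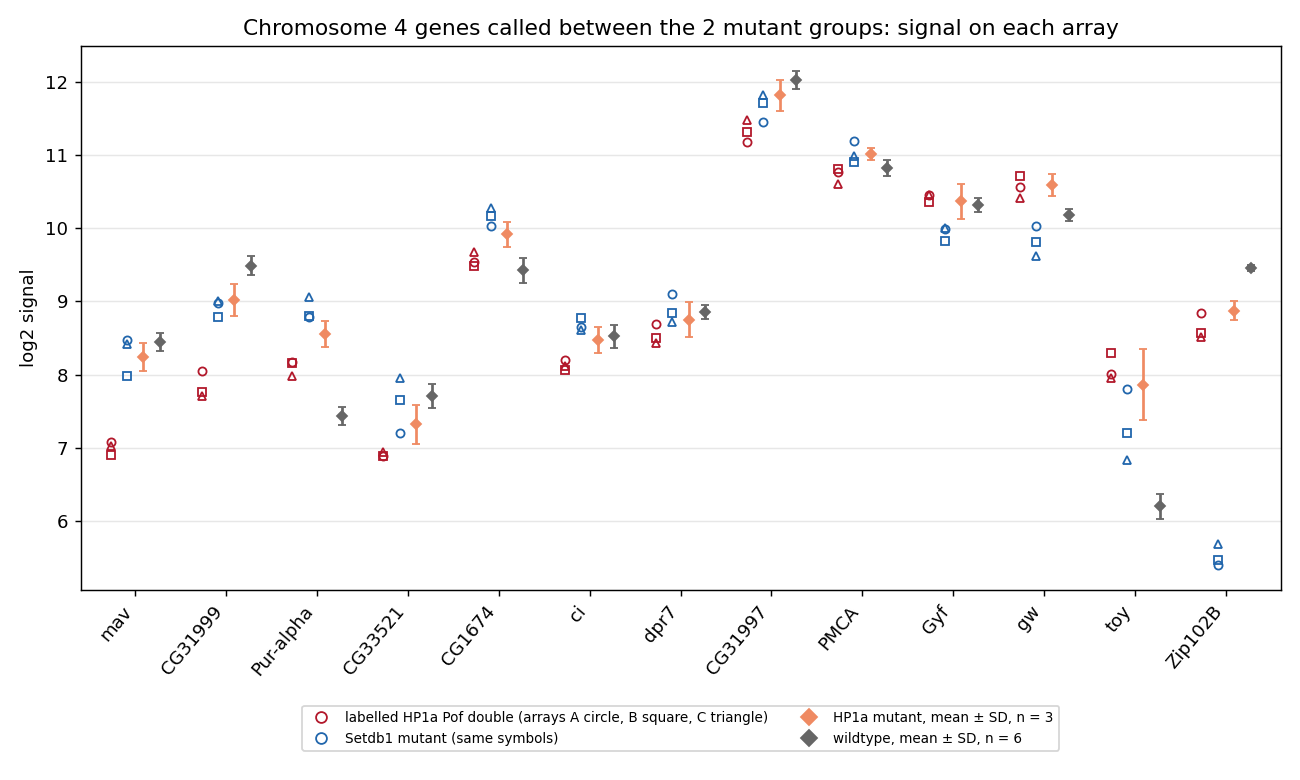
Log2 signal on each array for the 13 called chromosome 4 genes, ordered from the largest fall (mav) to the largest rise (Zip102B); open symbols are single arrays, and filled diamonds are mean ± SD of HP1a mutants (n = 3) and wildtype (n = 6). For mav and CG31999 the red symbols lie below all other groups shown, and for Zip102B the blue symbols do.

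**Figure D3:**
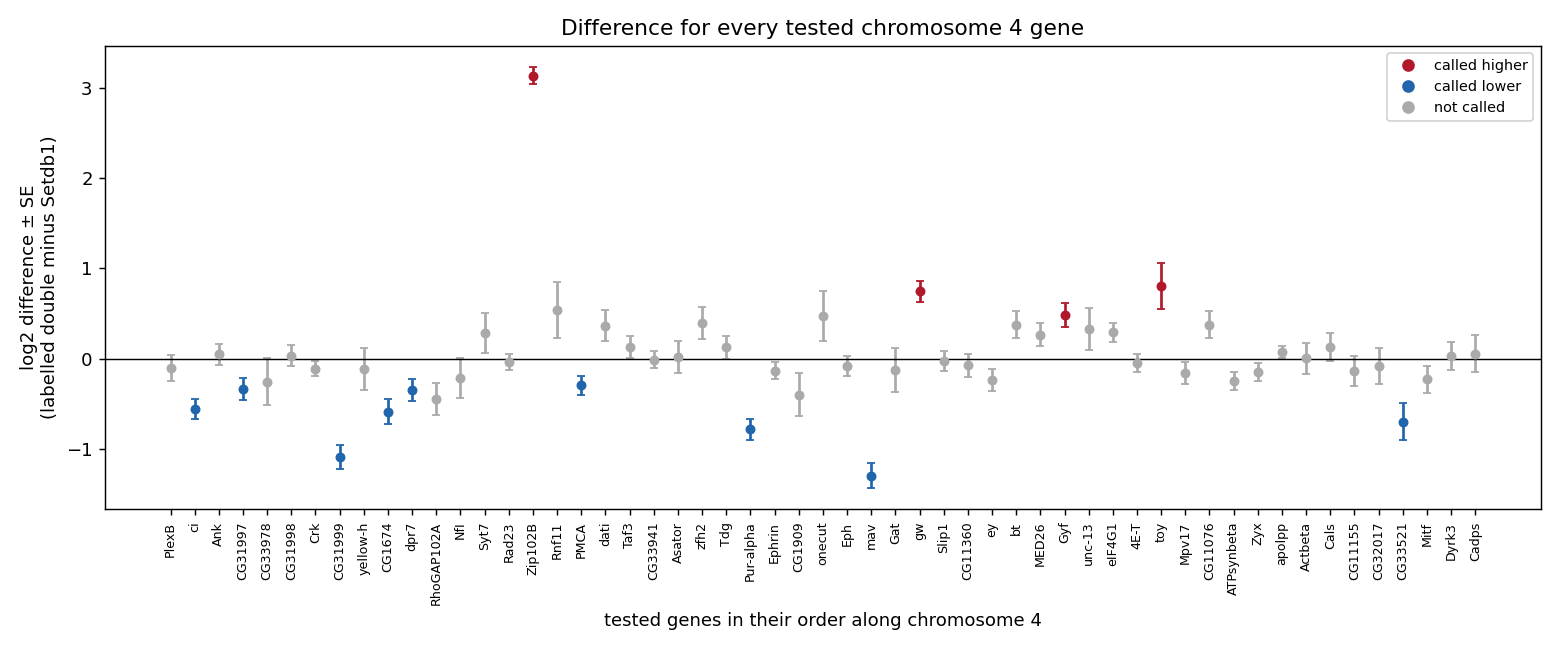
Difference ± SE (log2, labelled double mutant minus Setdb1) for all 55 tested chromosome 4 genes in their order along the chromosome. The 4 genes called higher and 9 called lower are scattered among uncalled genes, and all but Zip102B, mav and CG31999 differ by less than 1.

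Pericentromeric genes, which lie in or next to the heterochromatin of the large chromosomes, were more often lower than higher. The region was taken with approximate limits (2L from 22 Mb, 2R to 5 Mb, 3L from 23 Mb, 3R to 4 Mb and X from 22 Mb). Of its 88 tested genes 9 were higher and 23 lower, 36.4% against 27.0% of all genes, with a median of -0.15 and a median of -0.22 relative to genes of like length. CG40160, on 3L, read 8.05, 7.60 and 7.97 against 9.71, 9.53 and 9.63 (difference -1.75 ± 0.18), with HP1a mutants at 7.82 and wildtype at 10.43. CG40298, also on 3L, read 6.26, 5.69 and 5.91 against 7.23, 7.79 and 7.62 (difference -1.60 ± 0.29). The chitinase gene Cht10, on 2L, differed by -1.30 ± 0.29, and the fucosyltransferase gene FucTC, on X, by -1.25 ± 0.10. For CG40160, CG40298 and Cht10 both mutant groups were below wildtype and the arrays labelled double mutant the lower of them, whereas FucTC was above the wildtype mean of 6.93 in Setdb1 mutants (7.71, 7.79 and 7.67) and below it on the arrays labelled double mutant (6.54, 6.39 and 6.51). By arm, higher and lower counts were 2 and 5 on 2L, 2 and 9 on 2R, 2 and 5 on 3L and 3 and 3 on X, with 1 called gene of 4 on 3R, which was lower. The median was -0.27 on 2R, -0.22 on 3R and 0.06 on X.

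Along whole arms, called shares ran from 24.3% on 3L to 29.7% on 2R, and medians from 0.00 on 2R to 0.06 on X. Differences of at least 2-fold made up 4.63% of genes on 2R, where GstE1, GstE5, Cyp9c1, Cyp4p1, CG30458, Cpr49Ad, CG8160 and Prx6c all lie, and between 2.48% and 3.17% on the other large arms. The 3 chromosome 4 genes past 2-fold were 5.45% of that chromosome.

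Gene length divided the calls. With tested genes in 5 equal groups by length, the longest group (8231 bp or more) had 359 genes higher on the arrays labelled double mutant and 91 lower. In the shortest group (up to 1301 bp), 88 were higher and 342 lower. The counts higher and lower in the groups between were 141 and 306, 202 and 226, and 305 and 153, going from short to long. Medians ran in order through -0.12, -0.05, 0.03, 0.11 and 0.18, so the medians of the outer groups differed by 0.30. Genes called higher had a median length of 4779 bp and genes called lower 1862 bp, beside 2721 bp for all. Among genes past 2-fold the median lengths were 3069 bp for higher and 1703 bp for lower. The longest group held 34 of them higher and 7 lower, and the shortest 15 higher and 68 lower.

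The same order was found in each layer of the data looked at. Among the dimmest, middle and brightest genes, in 3 equal classes, the outer length groups differed by 0.30, 0.33 and 0.27, and within the 5 large arms by 0.24 to 0.37. Per array, the mean level of the longest group minus that of the shortest was -0.37, -0.31 and -0.46 on the arrays labelled double mutant and -0.56, -0.73 and -0.89 in Setdb1 mutants, which do not overlap. HP1a mutants read -0.40, -0.50 and -0.64, and wildtype arrays -0.79 to -0.62. Setdb1 mutants thus spanned the wildtype range, and the arrays labelled double mutant lay above it. The 3' minus 5' control values given above differ between the same groups, and their part in the length order was not tested. The count of long genes higher was 181 without array B labelled double mutant, 192 without Setdb1 array B, 198 without Setdb1 array C and 228 without array A labelled double mutant. Without array B labelled double mutant or Setdb1 array B, 59 and 54 long genes were lower and 228 and 222 short genes were lower. Short genes higher numbered 52 without array A labelled double mutant.

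**Figure D4:**
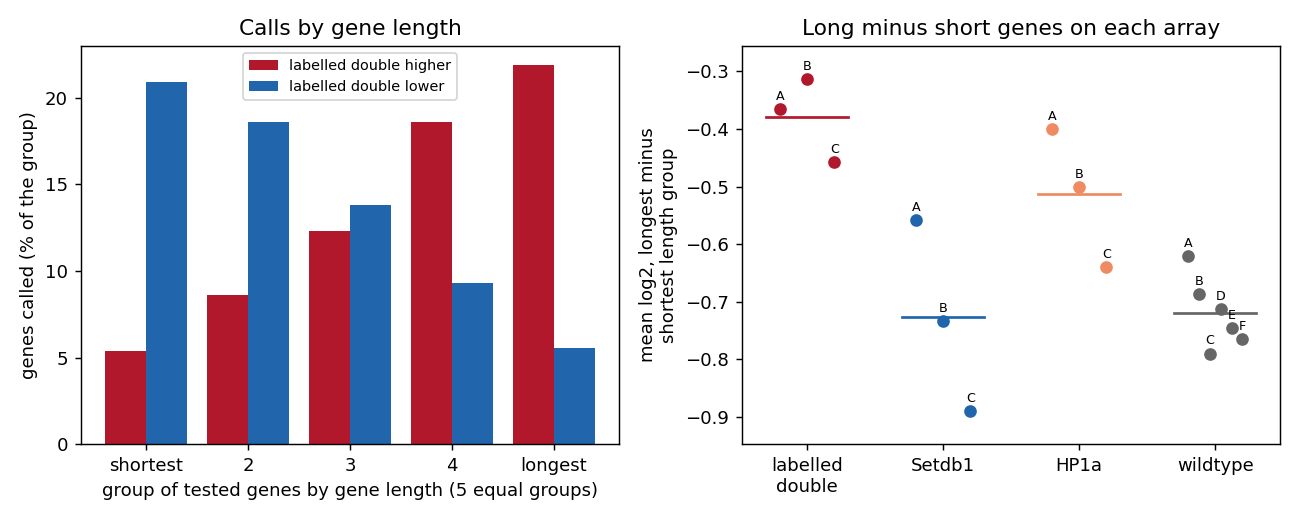
Left, percent of genes called higher (red) or lower (blue) in each of 5 equal groups of tested genes by gene length; right, mean log2 level of the longest group minus the shortest group on each array (letters) with group means (lines). Calls pass from mostly lower among short genes (342 of 430 calls) to mostly higher among long genes (359 of 450), and all 3 arrays labelled double mutant lie above all Setdb1 and wildtype arrays.

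Of 41 tested genes for chromatin and silencing factors, 18 were higher and 3 lower (51.2% called against 27.0% of all genes), with a median of 0.35 against 0.02. Relative to genes of like length the median was 0.24. The list includes the targeted genes that were measured, with Pof (1.33 ± 0.21) among the 18 and the HP1a gene among the 3. The largest rise was in Set8, a histone H4 methyltransferase gene, which read 7.24, 7.17 and 7.10 against 5.83, 5.79 and 5.81, with HP1a mutants at 6.99 and wildtype at 5.67 (difference 1.36 ± 0.20, limma adjusted p = 0.000156). Its probe set can match several transcripts. HDAC1, a histone deacetylase, read 9.02, 9.11 and 9.05 against 8.46, 8.22 and 8.42 (difference 0.69 ± 0.13). Both subunits of the nucleosome factor FACT were higher, Ssrp by 0.69 ± 0.13 and dre4 by 0.57 ± 0.11, as were the nucleosome remodeller Mi-2 (0.60 ± 0.11), the histone demethylase Kdm4A (0.56 ± 0.11) and the histone kinase JIL-1 (0.55 ± 0.18). The exceptions were HP1c (-0.25 ± 0.08), the HP1a gene described above and wde, which encodes the partner protein of Setdb1: it read 8.28, 8.34 and 8.40 against 9.15, 9.11 and 9.24, with 8.22 for HP1a mutants, 7.65 for Su(var)3-9 mutants and 8.20 for wildtype (difference -0.83 ± 0.10, limma adjusted p = 4.01e-05). Setdb1 mutants alone were high for wde, by 0.97 over wildtype (limma adjusted p = 3.81e-07). The count of 18 was 11 without array A or array B labelled double mutant, and 12 without Setdb1 array B.

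Of 33 genes of neurons and synapses, 16 were called (48.5% against 27.0% of all genes) and all 16 were higher, with a median of 0.49, or 0.35 above genes of like length. The RNA-binding protein gene elav, a standard neuronal marker, read 10.40, 10.58 and 10.21 against 9.45, 9.26 and 9.17, with 10.04 in HP1a mutants and 9.21 in wildtype (difference 1.10 ± 0.20, limma adjusted p = 0.00115). The microtubule protein gene futsch read 7.82, 8.24 and 7.98 against 7.15, 6.88 and 6.81 (difference 1.07 ± 0.20), and the potassium channel gene Sh 7.96, 8.13 and 7.75 against 7.22, 6.65 and 6.64 (1.11 ± 0.27). The vesicular monoamine transporter gene Vmat (1.12 ± 0.31) and the calcium channel gene cac (1.11 ± 0.31) were higher as well. The summed list, as a mean per array, was 8.30, 8.35 and 8.19 on the arrays labelled double mutant and 8.02, 7.69 and 7.53 in Setdb1 mutants, beside 7.80 to 8.08 in wildtype. In whole larvae, fewer cells of a type and less RNA per cell cannot be told apart. The count of 16 was 7 without Setdb1 array C, 8 without Setdb1 array B or array B labelled double mutant, 10 without array A labelled double mutant, 10 with the filter at log2 8 or on the 6 arrays alone, and 24 when the replicate letter was the block. Vmat lost its call without array B labelled double mutant or Setdb1 array C, and cac without any of array B labelled double mutant and Setdb1 arrays B and C.

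Replication and cell cycle genes gave 11 higher and 1 lower of 28 (42.9% called against 27.0% of all genes), with a median of 0.33. CycE, the cyclin that starts DNA synthesis, read 8.02, 7.92 and 7.93 against 7.14, 7.44 and 7.35 (difference 0.64 ± 0.22), and Mcm3, a subunit of the replicative helicase, 8.33, 8.22 and 8.14 against 7.74, 7.47 and 7.79 (0.57 ± 0.12). The arrays did not overlap for either gene. The origin recognition gene Orc1 (0.54 ± 0.16) and dup, the Cdt1 gene (0.53 ± 0.17), were also higher. CycE and Orc1 were below wildtype in Setdb1 mutants by -0.76 each, while Mcm3 was above wildtype on the arrays labelled double mutant by 0.77 (limma adjusted p = 0.00348, 0.00028 and 1.13e-05). This count is fragile: it was 1 without array A labelled double mutant or Setdb1 array B, 3 without array B labelled double mutant and 4 without array C labelled double mutant. The count was 7 with no filter and 5 on the 6 arrays alone. CycE lost its call when any of the 6 arrays was left out, and Orc1 and dup without array A or B labelled double mutant or Setdb1 array B, dup also without Setdb1 array C.

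Of 44 tested genes for digestive enzymes, 23 were lower and 7 higher (68.2% called against 27.0% of all genes), with a median of -0.42, or -0.33 relative to genes of like length. Among 9 trypsin genes 7 were lower and 1 higher, and among 13 Jonah protease genes 7 and 2. The trypsin gene iotaTry read 6.43, 6.11 and 6.91 against 8.78, 8.98 and 8.36, with 6.96 in HP1a mutants and 9.32 in wildtype (difference -2.22 ± 0.22, limma adjusted p = 3.57e-06). The lysosomal alpha-mannosidase gene LManV read 7.88, 7.60 and 7.74 against 9.80, 9.73 and 9.31 (difference -1.88 ± 0.20), and kappaTry 7.57, 7.37 and 7.39 against 9.28, 9.14 and 8.78 (-1.62 ± 0.15). Against this direction the glucosidase gene tobi read 7.11, 6.26 and 6.77 against 5.03, 4.55 and 4.54 (difference 2.01 ± 0.34), the maltase gene Mal-A8 8.78, 8.23 and 8.29 against 7.69, 6.33 and 6.49 (1.60 ± 0.30), and the lipase gene mag 8.85, 8.36 and 8.11 against 7.71, 6.94 and 7.06 (1.20 ± 0.25). Both groups were below wildtype for Mal-A8 (10.05) and mag (11.28), Setdb1 mutants more so. As a mean per array the list lay at 9.68, 9.55 and 9.54 against 10.16, 10.06 and 9.73, all below the wildtype range of 10.6 to 10.7.

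Detoxification genes gave 45 lower and 11 higher of 130 (43.1% called against 27.0% of all genes), with a median of -0.29, or -0.26 relative to genes of like length. All 16 called UDP-glycosyltransferase genes, of 29 tested, were lower, with Ugt37A2 at 6.29, 6.62 and 6.07 against 8.04, 7.92 and 7.26 (difference -1.41 ± 0.23). Among 63 cytochrome P450 genes 20 were lower and 9 higher, so this family split, with Cyp4p1 and Cyp9c1 at one end and Cyp28a5 and Cyp28d2 at the other. Cyp6a20 (-1.87 ± 0.19) was above its wildtype mean of 7.29 in Setdb1 mutants, at 9.05, 8.82 and 9.35, and lay around it on the arrays labelled double mutant, at 7.14, 6.73 and 7.74. Of 12 GstE genes 3 were called, GstE1 and GstE5 lower and GstE9 higher (0.56 ± 0.13), while GstE3 (-0.24 ± 0.17) and GstE7 (-0.29 ± 0.11) were not. With the filter at log2 8 the list had 29 genes lower.

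The respiratory chain genes that were called were lower by small amounts. Of 59 members of oxidative phosphorylation 22 were called (37.3% against 27.0% of all genes), all lower, and 13 of them were among the 27 subunits of NADH dehydrogenase. The list had a median of -0.15, but of -0.07 relative to genes of like length, since its genes are short (median 1112 bp). ND-13A read 11.56, 11.51 and 11.53 against 11.98, 11.99 and 11.92, with 11.52 in HP1a mutants and 11.76 in wildtype (difference -0.43 ± 0.06, limma adjusted p = 9.56e-05). ND-B14.5A (-0.40 ± 0.07) and SdhD (-0.36 ± 0.06), a succinate dehydrogenase subunit, followed. Leaving out single arrays gave 9 (Setdb1 B), 11 (B or C labelled double mutant) and 13 (Setdb1 A) members lower, and the fit on the 6 arrays alone gave 5.

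The other lists are given by their counts, beside 27.0% called of all genes. Of 93 cuticle protein genes 1 was higher and 6 lower (7.53% called), with a wide spread within groups: the mean per array was 8.99, 9.18 and 10.08 on the arrays labelled double mutant and 9.51, 9.41 and 10.18 in Setdb1 mutants, array C being highest in both. Of 37 cytoplasmic ribosomal protein genes 1 was called (RpL37-2, -0.38), and of 69 mitochondrial ones 3 were higher and 7 lower (10 called in all). Of 18 muscle genes 0 were called by limma (3 at an unadjusted p under 0.05), with differences from -0.29 to 0.38. Fat body and larval serum genes gave 1 higher and 4 lower of 15 (33.3%), haemocyte genes 3 and 3 of 17 (35.3%), and glial genes 1 and 2 of 7 (42.9%). Neuropeptide genes gave 5 called of 29 (17.2%), all higher, led by Nplp1 (0.71 ± 0.15).

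**Figure D5:**
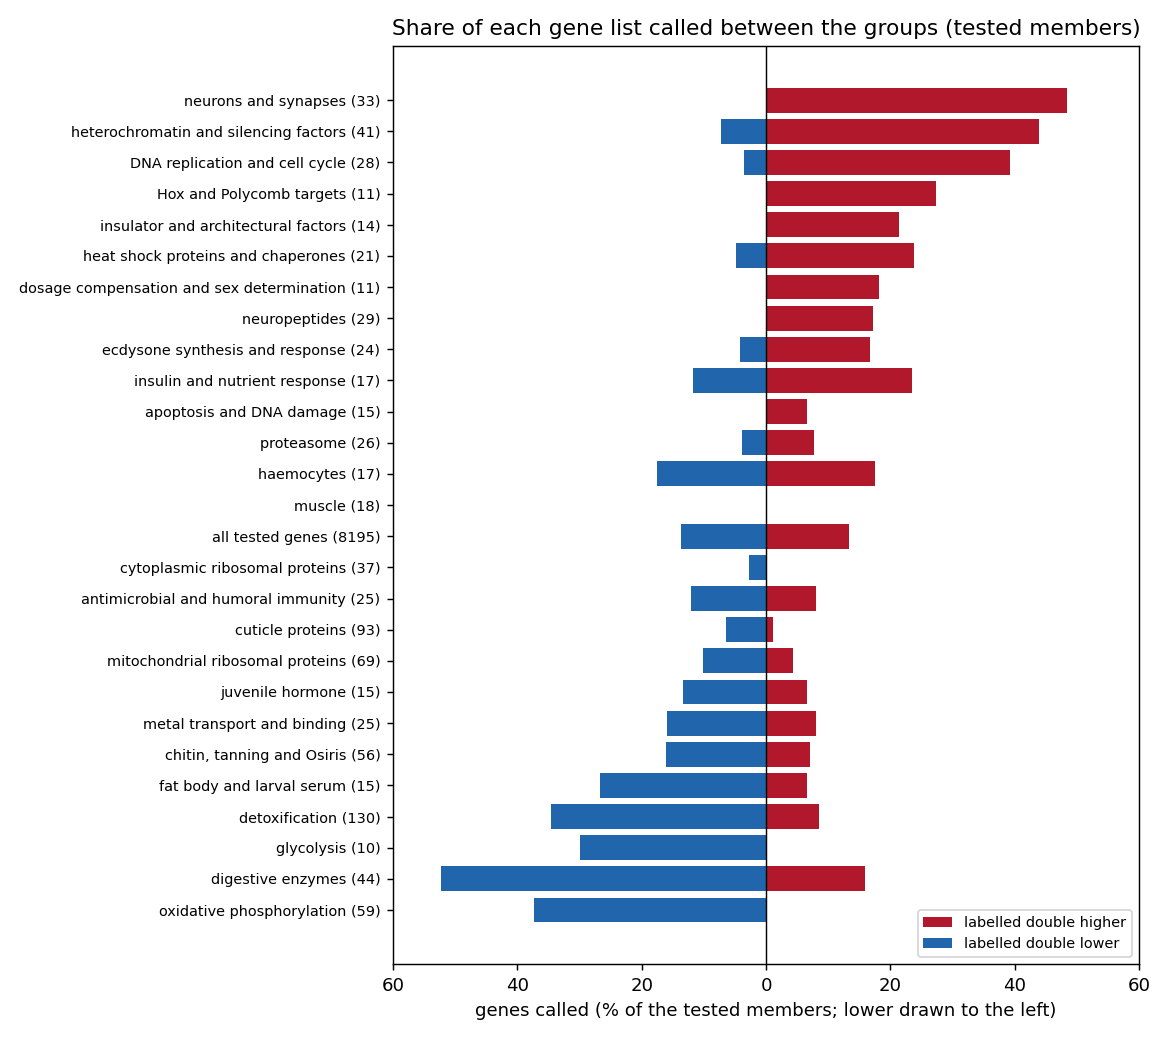
Percent of the tested members of each gene list (number in brackets) called higher (red, to the right) or lower (blue, to the left) on the arrays labelled double mutant, with all tested genes as reference. Calls lie mostly on the higher side among neuronal, chromatin and replication genes and mostly on the lower side among digestive, detoxification and respiratory chain genes. The counts higher in the first 3 lists, and the count lower among respiratory chain genes, fall when single arrays are left out.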

How the data were processed

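Per the labels' protocols, total RNA of pooled larvae was labelled with biotin and hybridised as is standard for Affymetrix arrays. The authors deposited log2 signals from RMA, per the submitters' processing notes, and no source used here gives its settings. Each array holds 18952 values. Through the platform annotation 13647 probe sets named 1 gene, 402 several and 4720 none, and 183 were controls. Names of 13550 matched the Release 6 gene table, giving 11899 genes, 1082 of them with several probe sets, and for those the brightest one stood for the gene. The 8195 genes that reached log2 6 on 3 or more of the 18 arrays were tested.

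All 18 arrays entered 1 limma model (limma 3.58.1, R 4.3.3) with 5 groups and 13 residual degrees of freedom. The p-values were adjusted by Benjamini-Hochberg over the whole table, and called genes have an adjusted p under 0.05. Lists and regions are described by counts and medians. The lists (32) and the genes named were chosen with earlier results of these data known. Named were the targeted genes, every called chromosome 4 gene, the called genes with the 12 largest differences each way and no overlap between arrays, and up to 4 called members of each list, region or arm with the largest differences. Further list members named were chosen after their values were seen.

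Same-letter arrays of the 2 groups deviated together (residual correlations 0.284, 0.426 and 0.518), which is the only source of the pairing, since the labels give letters without a meaning. The letter as a block is an alternative, in which wildtype arrays D to F do not enter the comparisons. Other alternatives were the filter, array centring, the mean of probe sets, the 6 arrays alone, array weights, a trended robust prior and leaving out each array. The procedure was tested on simulated data. A planned description of promoter motifs was not made, since no sequence was used here.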

Additional observations from a re-analysis of the deposited data

Results flagged for a closer look

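The 6 wildtype arrays of CG31999, a reference group for a called chromosome 4 gene, held 1 value far from the others: 9.23, against a group mean of 9.49 ± 0.13 (SD, n = 6). A gap that just passes the cutoff used is met by chance in about 1 of 20 groups, and 15 genes were looked at. How rare the gap seen here is was not worked out. In the comparison of the mutant groups, wildtype arrays enter the shared spread, the brightness filter and the choice of probe set, and not the difference itself.

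Probe sets that name no gene or several genes were left out of the comparisons above. Of 5219 such probe sets 1263 were bright enough to test, and 353 were called by limma (226 higher and 127 lower on the arrays labelled double mutant), 34 and 14 of them by at least 2-fold. Their genes were not identified here.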

How the results depend on the processing

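None of the 127 genes named by rule changed sign under these alternatives, and 106 of them were tested with the filter at log2 8. Other genes named are not in this count. The balance of all calls did turn, from 1095 higher and 1118 lower to 1247 and 1133 with array weights, 1182 and 1083 with the replicate block, 749 and 689 on the 6 arrays alone and 1077 and 1058 without Setdb1 array A. Of 2 list medians near 0, that of apoptosis and DNA damage genes turned to -0.0079 with the filter at log2 8, and that of neuropeptide genes ran from -0.022 without Setdb1 array C to 0.112 without Setdb1 array A. Of the 127 genes named by rule, 83 kept their call in every setting and 44 lost it in at least 1. A filter at log2 8 gave 53 genes at least 2-fold higher and 15 pericentromeric genes lower, with fewer genes tested, and left no spermatogenesis gene for a median. The fit on the 6 arrays alone, which has fewer residual degrees of freedom, gave 689 genes lower, 60 long genes lower, 38 short genes higher, 194 short genes lower and 89 list members lower. Chromosome 4 went from 4 higher and 9 lower to 7 and 7 with array weights and 7 and 10 with the block. The block's other changes of calls are named beside the results, or concern CycE, Desat1, Gapdh1, Hsp110, Indy, RpL37-2, Rpn8, fru and spn-E, which were not called with it. Leaving out single arrays gave 588 to 1077 genes higher and 748 to 1084 lower, 74 to 148 and 143 to 211 of at least 2-fold, 2 to 5 and 5 to 8 chromosome 4 genes, 6 to 7 and 18 to 23 pericentromeric genes, 181 to 396 and 54 to 108 long genes, 52 to 99 and 222 to 361 short genes, and 66 to 111 and 96 to 144 list members. The median difference between long and short genes stayed within 0.24 and 0.36. The cause of these shifts was not tested. Signals near the filter limit the differences of dim genes, and 3 arrays a group limit all counts of small differences.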

Other observations

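Single genes of immunity, metal binding and nutrient response also differed, from lists of which 5 of 25, 6 of 25 and 6 of 17 tested members were called, against 27.0% of all genes. PGRP-SC2, which encodes a secreted amidase that degrades peptidoglycan in the gut, read 9.92, 9.52 and 9.34 on the arrays labelled double mutant and 11.79, 11.83 and 11.64 in Setdb1 mutants, with 9.17 in HP1a mutants and 12.60 in wildtype (difference -2.16 ± 0.12, limma adjusted p = 2.05e-09). The metallothionein gene MtnB read 9.08, 8.14 and 9.04 against 11.17, 10.50 and 10.19, with wildtype below both at 7.40 (difference -1.86 ± 0.30). S6k, the kinase that acts downstream of TOR, read 10.23, 10.32 and 10.31 against 9.38, 9.27 and 9.59, with Su(var)3-9 mutants at 9.71 and wildtype at 10.19 (difference 0.87 ± 0.12). The transcription factor gene sug, of nutrient response, was lower by 0.94 (difference -0.94 ± 0.12), with wildtype at 10.28 near the Setdb1 arrays.

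Of 24 genes of ecdysone synthesis and response, 4 were higher and 1 lower, 20.8% called against 27.0% of all genes. The transcription factor gene br, induced by ecdysone, read 8.91, 9.19 and 8.71 against 8.35, 7.82 and 7.39, with wildtype at 7.85 (difference 1.09 ± 0.26), and shd, whose enzyme makes the active hormone, read 6.65, 6.39 and 6.43 against 7.21, 7.86 and 7.41 (limma adjusted p = 0.000199). The homeotic gene Antp (0.72 ± 0.17) and the limb gene Dll (0.66 ± 0.18) were higher, both with Setdb1 mutants close to wildtype, and Dll lost its call without array B labelled double mutant or Setdb1 array C. Among 21 chaperone genes 5 were higher and 1 lower (28.6% called), a share near that of all genes. The largest rise was in the small heat shock gene Hsp27 (0.78 ± 0.17), which lost its call in the fit on the 6 arrays alone (limma adjusted p = 0.0597).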
